A study of Homo sapiens with 18 samples.

Results

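Stem-like states of ovarian cancer cells are commonly followed through a small set of markers, and 10 of these were considered here: PROM1, CD44, CD24, KIT, KITLG, SOX2, SOX4, SOX9, KLF4 and LIN28B. They were matched by gene symbol to an RNA-seq table of 12853 genes, and 7 of the 10 were found there (PROM1, CD44, KITLG, SOX4, SOX9, KLF4 and LIN28B), while CD24, KIT and SOX2 were not analysed here. Reads of CD24 can also be assigned to its processed copies, which were not used. The set was chosen on measured values of PROM1, which is lost in PEO4 and gained in PEA2, so PROM1 in these 2 pairs of lines is described without a test.

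The 6 ovarian cancer cell lines form 3 pairs of a platinum-sensitive and a platinum-resistant line, with 3 replicate libraries per line and 18 in all. CP70 is a derivative of A2780, an endometrial/ovarian line, made resistant in culture. PEO1 and PEO4 came from 1 patient with high-grade serous ovarian cancer (HGSOC), both after platinum-based chemotherapy, before and after clinical resistance. PEA1 and PEA2 came from the ascites of another HGSOC patient, before platinum and after relapse. All lines were grown in the same medium with serum, ribosomal RNA was depleted from total RNA, and the labels name no agent added to any group, although the design text of the series speaks of cisplatin treatment. Each pair is thus 1 resistant line set against 1 sensitive line, and a difference belongs to those lines. The labels do not say whether replicates came from separate cultures, so the tests measure the spread between these libraries, which may be technical.

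PROM1 (CD133) and CD44 are cell surface glycoproteins used to sort tumour-initiating cells, and CD44 binds hyaluronan. KITLG (stem cell factor) is the ligand of the receptor tyrosine kinase KIT. SOX4, SOX9 and KLF4 are transcription factors of progenitor cells, and LIN28B is an RNA-binding protein that blocks the maturation of the let-7 microRNAs, which themselves silence growth-promoting mRNAs.

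Values are read counts relative to library size on the log2 scale (log2 CPM, where CPM divides the reads of a gene by the size of its library), with 0.5 reads added to each count, and log2FC is the resistant minus the sensitive line. The false discovery rate (FDR) came from limma over all 12853 genes, and genes were called at |log2FC| above 2 and FDR below 0.05. Libraries held 1344098 to 7067336 reads on the listed genes. The library sizes behind the deposited values were scaled and differ from these totals. By the scaled sizes 3 reads, the floor used here, corresponded to 0.452 to 2.18 CPM. Replicates of a line correlated at Pearson r of 0.962 or more across genes. The lines differed in how many epithelial markers they carried. Of 15 Müllerian and serous epithelial markers, A2780 had 2 above 3 reads in any library and CP70 had 4, with PAX8, WT1 and CDH1 at 3 reads or fewer in both, against 9 in PEA1, 14 in PEA2, 13 in PEO1 and 14 in PEO4.

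**Figure D1:**
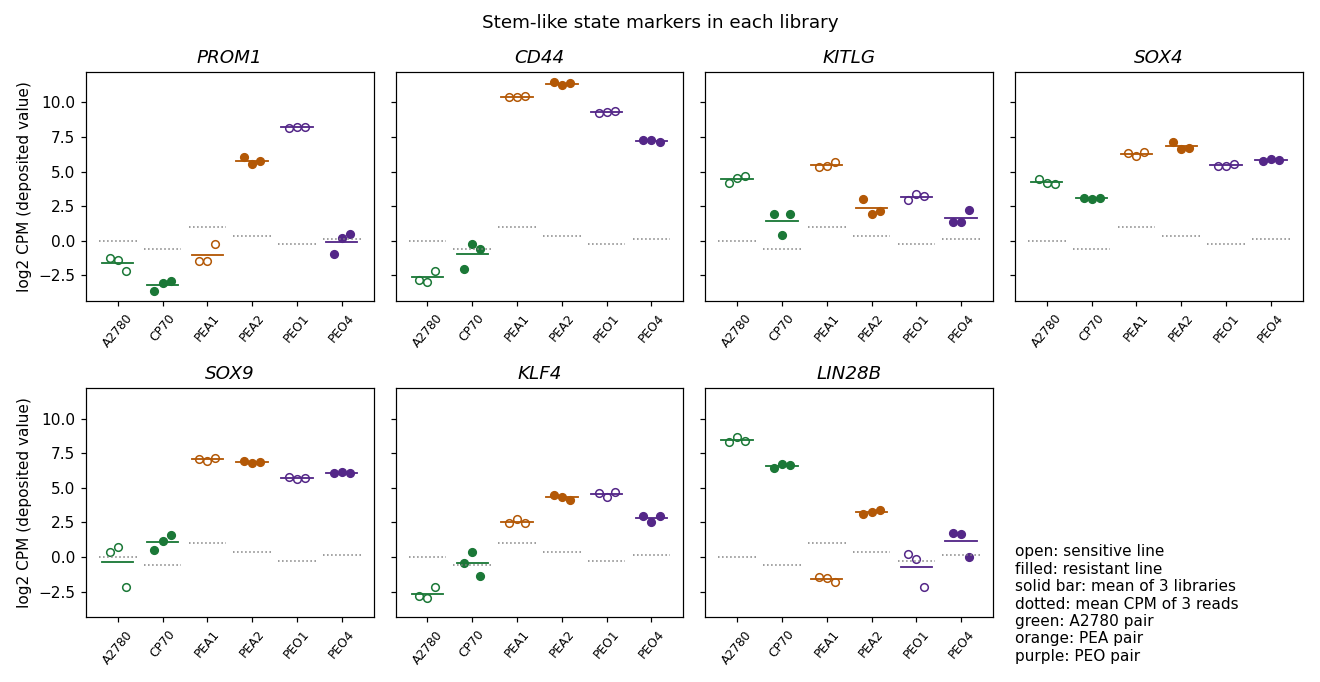
Level of the 7 stem-like state markers (y axis, log2 CPM) in each of the 18 libraries, by cell line (x axis). Open points are sensitive and filled points resistant lines, solid bars are means of 3 libraries, and dotted bars mark the mean CPM of 3 reads. The mean of PROM1 stands above the dotted bar in PEA2 and PEO1 alone and that of CD44 in the 4 HGSOC lines. Single points of PROM1 in PEO4 and of CD44 in CP70 also lie above it. LIN28B is highest in A2780.

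PROM1 (ENSG00000007062, chr4:15964699-16086001 on GRCh37, minus strand) was high in 1 line of each HGSOC pair, and it was the sensitive line in one and the resistant line in the other. The 3 PEO1 libraries held 887, 823 and 1936 reads (8.18, 8.20 and 8.19 log2 CPM), and the 3 PEO4 libraries held 1, 3 and 3 reads. In the other pair, the PEA1 libraries held 0, 0 and 1 reads and the PEA2 libraries held 121, 160 and 118 reads (6.02, 5.53 and 5.76 log2 CPM). The lines of neither pair overlapped. The log2FC was -8.26 for PEO4 over PEO1 and 6.82 for PEA2 over PEA1, and the ratios of pooled reads per library size were 348 (95% exact interval 169 to 867) for PEO1 over PEO4 and 239 (42.7 to 9474) for PEA2 over PEA1. These intervals, like all intervals on reads here, cover counting error only. A2780 held 1, 1 and 0 reads of PROM1 and CP70 held 0 in each library, so no fold was formed in that pair. Its log2FC of -1.61 (FDR = 0.00536) came from values of at most 1 read and rests on the 0.5 reads added. Across the 6 lines, PROM1 was thus at or under 3 reads in 4, and the order from PEO1 to PEA2 to the rest had no overlap until PEO4, PEA1 and A2780, which overlapped their neighbours. In the annotation an exon of FGFBP2 overlaps PROM1 on the same strand, and reads there could be assigned to either gene. PROM2, the other prominin, was also highest in PEO1 (7.49 ± 0.15 log2 CPM, SD, n = 3) but had 6.98 ± 0.03 in PEO4 (log2FC -0.51, FDR = 0.331), where PROM1 was at 3 reads or fewer. The PEO1 and PEO4 libraries did not overlap in PROM2. It rose from 2 to 5 reads per library in PEA1 to 10 to 33 in PEA2 (log2FC 1.39, FDR = 0.00481) and had at most 1 read in any library of the A2780 pair.

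CD44 (ENSG00000026508, chr11:35160429-35253949, plus strand) was detected in every HGSOC library and had at most 3 reads in any library of the A2780 pair. It was highest in PEA2 (11.45, 11.24 and 11.38 log2 CPM), followed by PEA1 (10.36, 10.39 and 10.44), PEO1 (9.26, 9.29 and 9.41) and PEO4 (7.28, 7.29 and 7.14). None of these neighbours overlapped. CD44 fell in the PEO pair, with a log2FC of -2.08 (SE 0.286, FDR = 6.61e-06), and rose by less in the PEA pair, with a log2FC of 0.96 (SE 0.286, FDR = 0.00653). The log2FC differed between these 2 pairs by 3.05 (PEA minus PEO, 95% confidence interval 2.20 to 3.89, FDR = 2.46e-06). In A2780 no library held a CD44 read, and the CP70 libraries held 1, 3 and 2 reads. The log2FC of 1.68 there passed the FDR (7.09e-05) but lost it with 2 reads added to each count (0.42, FDR = 0.142), and no fold was formed. Antisense genes overlap CD44 in the annotation, and the strand setting of the counting is not given in the sources used here.

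KITLG (ENSG00000049130, chr12:88886570-88974628, minus strand) was lower in the resistant line of all 3 pairs, without overlap between the lines in any. A2780 libraries had 4.20, 4.56 and 4.71 log2 CPM and CP70 libraries 1.94, 0.38 and 1.93, a log2FC of -3.07 (SE 0.387, FDR = 1.89e-06). PEA1 libraries had 5.31, 5.43 and 5.72 and PEA2 libraries 3.05, 1.96 and 2.12, a log2FC of -3.11 (SE 0.387, FDR = 8.51e-07). PEO1 libraries had 2.94, 3.40 and 3.24 and PEO4 libraries 1.38, 1.32 and 2.22, a log2FC of -1.55 (SE 0.387, FDR = 0.00297) that did not reach the threshold of 2, except with quantile normalization (-2.45, FDR = 0.000124). The low lines rest on few reads, 5 to 23 in CP70, 9 to 15 in PEA2 and 7 to 11 in PEO4. Over the lines the order was PEA1, A2780, PEO1, PEA2, PEO4 and CP70, and the ranges of PEO1 and the 3 resistant lines each overlapped that of the next. The 3 pairs share no libraries. KIT, the receptor, was not analysed here, so the ligand is given without it.

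SOX4 (ENSG00000124766, chr6:21593982-21598850, plus strand) was detected in every library and differed by less than 1 on the log2 scale within the HGSOC pairs. It fell in the A2780 pair, from 4.49, 4.18 and 4.10 log2 CPM in A2780 to 3.10, 3.03 and 3.05 in CP70, with a log2FC of -1.20 (SE 0.146, FDR = 1.20e-06). It rose in the PEA pair, from 6.37, 6.10 and 6.39 in PEA1 to 7.16, 6.65 and 6.69 in PEA2 (log2FC 0.55, SE 0.146, FDR = 0.00293). In the PEO pair it went from 5.39, 5.43 and 5.56 to 5.75, 5.94 and 5.86 (log2FC 0.39, SE 0.146, FDR = 0.0387), a call that was lost when PEO1 replicate 1 or 2 or PEO4 replicate 2 or 3 was left out (FDR 0.0882 to 0.121). The lines did not overlap in any pair, and none of these differences reached the log2FC threshold.

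SOX9 (ENSG00000125398, chr17:70117161-70122557, plus strand) was detected in every HGSOC library and had at most 11 reads in any library of the A2780 pair. It had 7.10, 6.90 and 7.18 log2 CPM in PEA1, 6.91, 6.79 and 6.89 in PEA2, 5.76, 5.61 and 5.69 in PEO1, and 6.07, 6.12 and 6.07 in PEO4. The PEA lines overlapped and the PEO lines did not. The log2FC was -0.19 in the PEA pair (95% confidence interval -1.16 to 0.77, FDR = 0.734) and 0.40 in the PEO pair (-0.56 to 1.36, FDR = 0.527). The PEO difference passed the FDR when the 6 libraries of the pair were fitted alone (FDR = 0.00411) or with voom weights (FDR = 0.0220). A2780 held 4, 6 and 0 reads of SOX9 and CP70 held 8, 9 and 11. The log2FC of 1.44 there (FDR = 0.0167) came with overlapping lines. It lost the FDR when A2780 replicate 3, the library without a read, was left out (0.54, FDR = 0.0808), and also without CP70 replicate 3 (FDR = 0.0828). The same held with the pair fitted alone (FDR = 0.1075), quantile normalization (FDR = 0.146) and voom weights (FDR = 0.0510).

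KLF4 (ENSG00000136826, chr9:110247133-110252763, minus strand), a zinc-finger factor used in reprogramming to pluripotency, moved in opposite directions in the HGSOC pairs. PEA1 libraries had 2.45, 2.76 and 2.45 log2 CPM and PEA2 libraries 4.50, 4.32 and 4.14, a log2FC of 1.77 (SE 0.379, FDR = 0.000448). PEO1 libraries had 4.604, 4.36 and 4.66 and PEO4 libraries 2.96, 2.55 and 2.98, a log2FC of -1.71 (SE 0.379, FDR = 0.00108). The lines overlapped in neither pair, and both differences were under the log2FC threshold, which the PEO difference passed with quantile normalization (-2.12, FDR = 3.66e-05). The 2 log2FC differed by 3.48 (95% confidence interval 2.36 to 4.601, FDR = 1.52e-05). In the A2780 pair KLF4 was called (log2FC 2.18, FDR = 9.17e-05), but A2780 held no read and CP70 held 4, 5 and 1, so no fold was formed. That call fell below the threshold without CP70 replicate 2 (1.76) and with 2 reads added (0.77).

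LIN28B (ENSG00000187772, chr6:105384491-105531207, plus strand) had its highest levels in the A2780 pair. It had 8.34, 8.64 and 8.41 log2 CPM in A2780 and 6.41, 6.71 and 6.66 in CP70, a log2FC of -1.87 (SE 0.476, FDR = 0.00353). In the PEA pair it rose, where PEA1 held no read and PEA2 held 16, 33 and 22 (3.14, 3.27 and 3.36 log2 CPM), at least 4.65-fold higher against a floor of 3 reads per library (log2FC 4.84, FDR = 3.40e-08). In the PEO pair PEO1 held 3, 2 and 1 reads and PEO4 held 9, 9 and 2, a ratio of pooled reads of 4.99 (95% exact interval 1.93 to 15.2), and a log2FC of 1.84 (FDR = 0.00395). The lines overlapped there. With 1 library left out, this log2FC ranged from 1.12 (without PEO1 replicate 3) to 2.40 (without PEO4 replicate 3), and it also passed 2 without PEO1 replicate 1 (2.29), without PEO1 replicate 2 (2.11) and with voom weights (2.03). All 3 log2FC differed from each other, by 3.001 between the PEA and PEO pairs (FDR = 0.000766), -6.71 between the A2780 and PEA pairs (FDR = 6.07e-08) and -3.71 between the A2780 and PEO pairs (FDR = 0.000133). The first of these was 1.46 with 2 reads added to each count. LIN28B-AS1 overlaps LIN28B on the opposite strand.

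**Figure D2:**
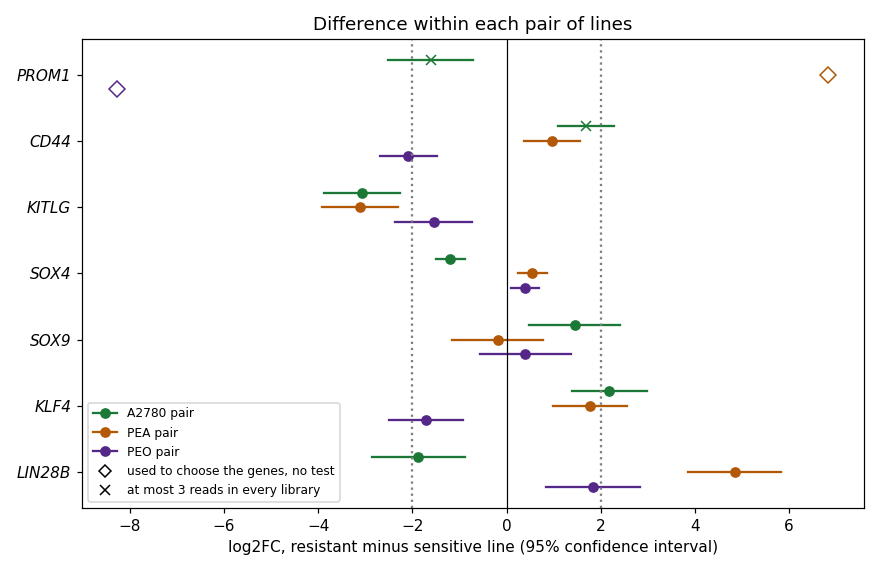
log2FC (x axis, resistant minus sensitive line) of each of the 7 markers (y axis) in the 3 pairs, with the 95% confidence interval from limma. Dotted lines mark a log2FC of -2 and 2, diamonds the PROM1 values used to choose the genes, and crosses values from at most 3 reads in every library. KITLG lies left of 0 in all 3 pairs, while CD44, KLF4 and PROM1 lie on opposite sides in the PEA and PEO pairs.

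Of the 7 markers, 2 were called in the A2780 pair (KLF4 higher, KITLG lower), where 9.06% of all genes were called, 5.66% higher and 3.40% lower. PROM1 chose the set and is left out of the HGSOC counts. In the PEA pair 2 of the 6 others were called (LIN28B higher, KITLG lower), where 14.1% of all genes were called, 7.93% higher and 6.15% lower. In the PEO pair 1 of the 6 others was called (CD44, lower), where 6.22% of all genes were called, 2.86% higher and 3.37% lower. With PROM1 the counts would be 3 and 2 of 7. By FDR alone, 7 of 7 passed in the A2780 pair, and of the 6 other than PROM1, 5 passed in each HGSOC pair. Of all genes, 39.9%, 61.9% and 41.5% passed in the A2780, PEA and PEO pairs. The A2780 count includes PROM1, CD44 and KLF4, with at most 1, 3 and 5 reads in any library there. It also includes SOX9, whose lines overlapped. Over the 6 other than PROM1 the median log2FC was 0.12 for CP70 (-1.20 with PROM1, which had at most 1 read there), 0.76 for PEA2 and -0.58 for PEO4, beside -0.03, 0.01 and -0.02 over all genes. A difference in log2FC above 2 between the PEA and PEO pairs was called for 3 of 6 markers (CD44, KLF4 and LIN28B, with PROM1 left out), against 19.4% of all genes.

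Some listed markers of cell types also differed within the pairs. In the PEA pair, 11 of the 15 epithelial markers were called higher in PEA2, among them CDH1 (0.25 to 9.53 log2 CPM on average) and KRT7 (0.82 to 10.05), while PAX8 was level (8.35 and 8.33). Their summed level was 442 to 595 CPM in the PEA1 libraries and 4417 to 4745 CPM in the PEA2 libraries. PEA2 also held 46 to 70 reads of PTPRC and 66 to 88 of CDH5, a leukocyte and an endothelial gene, each at 0 reads in PEA1. Of 7 leukocyte and mast cell markers and 3 endothelial markers listed, only these were analysed, so each cell type rests on 1 gene. Of the fibroblast markers, COL1A1 went from 8.62 to 1.95 log2 CPM. COL1A2 went the other way, from 0 reads in PEA1 to 1 to 5 per library in PEA2 (log2FC 1.76, FDR = 0.00748). DCN and LUM held no read in either line. In the A2780 pair, KRT8, KRT18 and EPCAM were called higher in CP70, and the summed level rose from between 3.13 and 3.92 CPM to between 91.0 and 96.8 CPM. The fibroblast markers DCN, LUM and COL1A2 were called higher in CP70, where the 4 genes of that list summed to 50.5 to 57.2 CPM, against 6.19 to 12.9 CPM in A2780. In the PEO pair, EMX2 and FOLR1 were called higher and KRT7 lower, the summed levels of the epithelial markers overlapped between the lines, and COL1A2 was called higher in PEO4. The part of these genes in the changes of the 7 markers was not tested. In bulk RNA, fewer cells of a kind and less RNA per cell cannot be told apart.

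Per kilobase of exon, the order of the markers within a line differed between the lines. CD44 led in PEA2 at 263 CPM per kb, followed by SOX9 at 29.6, SOX4 at 23.7, PROM1 at 7.36, KLF4 at 5.43, LIN28B at 1.58 and KITLG at 0.852. CD44 also led in PEA1 at 135 CPM per kb and in PEO1 at 64.0, where PROM1 was second at 39.2. In PEO4 SOX9 led at 17.2 CPM per kb with CD44 at 15.1, and PROM1 was last at 0.115. In A2780 LIN28B led at 59.6 CPM per kb, ahead of SOX4 at 3.93 and KITLG at 3.63. The lengths are all annotated exons of a gene, and by the longest transcript the values of PROM1 and CD44 in PEO1 were 67.1 and 118 CPM per kb, and CD44 led in PEO4 at 27.7.

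The let-7 microRNAs that LIN28B holds back share the seed that pairs with target mRNAs. Of the family, 9 mature sequences in RefSeq (GRCh38.p14) carry the same bases 2 to 8, and 3 are shown with that seed in capitals because it is the feature by which the target genes of this axis are recognised.
hsa-let-7a-5p: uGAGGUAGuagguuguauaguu
hsa-let-7d-5p: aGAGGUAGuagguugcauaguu
hsa-miR-98-5p: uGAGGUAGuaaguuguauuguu
The levels of these microRNAs were not measured here.

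The complement of the seed followed by A, CTACCTCA, was searched on the sense strand of the 3′ UTR of the canonical transcript of each gene (GRCh37 annotation). It was present in 4.53% of 11434 genes. LIN28B itself held 2 copies in 4549 bases, where 9.67% of genes with a 3′ UTR of like length (within 20%) held 1 or more and 0.505% held at least 2. TRIM71, a stem-cell ubiquitin ligase, held 4 in 6013 bases, and 0.132% of 758 genes of like length held at least as many. These shares count the gene itself. IGF2BP1, an mRNA-binding oncofetal protein, held 3. The other 6 markers held none, which says only that these letters are not in that stretch. A copy of each of the genes below is shown with the 14 bases before it, and the match is in capitals.
LIN28B, chr6:105526688-105526709, plus strand: cccggttgcaaagtCTACCTCA
TRIM71, chr3:32933461-32933482, plus strand: acattgcttaagtcCTACCTCA
HMGA2, chr12:66357079-66357100, plus strand: ccaacgttcgatttCTACCTCA

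Of 22 further genes listed for the let-7 axis, 20 were analysed, and 1 was called in the A2780 pair (lower), 5 in the PEA pair (4 higher, 1 lower) and 1 in the PEO pair (lower). TRIM71 was detected in A2780 (6.37 ± 0.16 log2 CPM, SD, n = 3) and at 2 reads or fewer in each CP70 library, a ratio of pooled reads of 295 (95% exact interval 115 to 1085), and it held no read in the 4 HGSOC lines. IGF2BP1 was high in both lines of the A2780 pair, with 9.05 ± 0.09 log2 CPM in A2780 and 8.61 ± 0.01 in CP70, against at most 14 reads in any HGSOC library. It was not called in any pair, and its FDR was 0.459 in the A2780 pair, whose lines did not overlap, and 0.00844 in the PEA pair (log2FC 1.44). HMGA2, a chromatin protein silenced by let-7, had 9.17 ± 0.32 log2 CPM in A2780 and 9.13 ± 0.11 in CP70 (log2FC -0.04, FDR = 0.856), in lines between which LIN28B fell. In the PEA pair HMGA2 rose from 7.59 ± 0.18 to 8.27 ± 0.24 (log2FC 0.67, FDR = 0.00108). IGF2BP3 rose in both HGSOC pairs, by 1.0 on the log2 scale in PEA2 (FDR = 7.18e-05) and by 1.09 in PEO4 (FDR = 5.55e-05). IGF2BP2 rose in the PEA pair (1.19, FDR = 1.28e-07) and fell in the PEO pair (-0.33, FDR = 0.0482). MYCN was detected in PEA1 (8 to 22 reads) and not in PEA2, at least 8.30-fold lower there, and held at most 1 read in each of the other 4 lines. CCND2 was at least 2.05-fold higher in PEA2, where PEA1 held no read, and ARID3A rose in the PEA pair (log2FC 2.72, FDR = 3.02e-06) and fell in the A2780 pair (-1.34, FDR = 0.00704) and the PEO pair (-2.12, FDR = 0.000122). DIS3L2, the nuclease that degrades uridylated let-7 precursors, did not pass the FDR in any pair (0.0592 to 0.379). LIN28A was not analysed here.

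**Figure D3:**
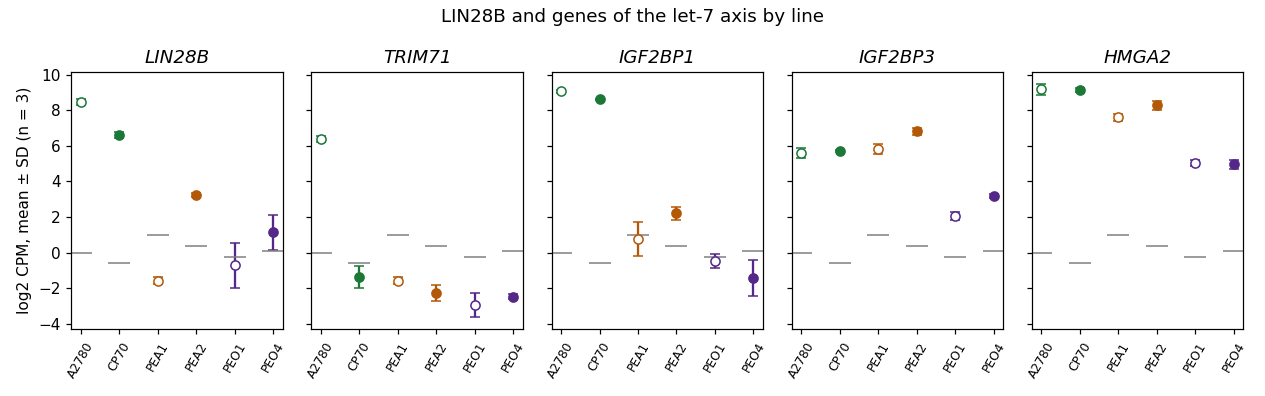
Mean log2 CPM (y axis) with the SD over 3 libraries of LIN28B and 4 genes of the let-7 axis by cell line (x axis). Open points are sensitive lines, filled points resistant lines, and grey marks the mean CPM of 3 reads. TRIM71 lies above the grey mark in A2780 alone, and HMGA2 has nearly the same level in A2780 and CP70.

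Of 20 listed genes that act with CD44 or make, bind or cleave hyaluronan, 14 were analysed. CP70 had 1 of them higher and 2 lower, PEA2 had 3 higher and 2 lower, and PEO4 had 1 higher. ESRP1, an epithelial splicing regulator that acts on CD44 transcripts, went from 0 reads in PEA1 to 8.37 ± 0.11 log2 CPM in PEA2, at least 165-fold higher, and its relative ESRP2 rose with a log2FC of 3.78 (FDR = 8.14e-08). In the PEO pair ESRP1 had 8.39 ± 0.03 and 8.71 ± 0.03 log2 CPM (FDR = 0.528), without overlap between the lines. The proteoglycan gene SRGN was at least 68.3-fold higher in PEA2, again with no read in PEA1. SPP1 (osteopontin, a secreted ligand of CD44) was called in both HGSOC pairs, lower in PEA2 (8.72 to 1.38 log2 CPM, FDR = 1.61e-09) and higher in PEO4 (-0.95 to 1.76, FDR = 0.000828), where it held at most 13 reads. In the A2780 pair, where CD44 had no more than 3 reads, EZR, which links CD44 to actin, rose (5.96 to 8.58 log2 CPM, FDR = 2.64e-14), while VCAN, a hyaluronan-binding proteoglycan, fell (7.01 to 2.01, FDR = 1.46e-10) and TMEM2, a cell surface hyaluronidase, fell (8.27 to 3.75, FDR = 1.04e-17). MSN, a relative of EZR, rose in the PEA pair (log2FC 1.28, FDR = 5.32e-11), with smaller differences of 0.40 (FDR = 0.000470) and 0.29 (FDR = 0.00738) in the A2780 and PEO pairs. RDX did not pass the FDR in any pair (0.0593 to 0.936), nor did the hyaluronan synthase HAS3 (0.0789 to 0.613), and HAS2 was not analysed here.

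Among 25 genes of the KIT pathway and its related receptors and ligands, 20 were analysed, and 5 were called higher in CP70, 4 higher and 3 lower in PEA2, and 3 higher and 4 lower in PEO4. The platelet-derived growth factors, ligands of receptors related to KIT, did not all move with KITLG. PDGFB rose in the A2780 pair (-0.54 to 4.79 log2 CPM, FDR = 5.54e-09) and in the PEA pair (2.73 to 6.88, FDR = 1.23e-07), and fell in the PEO pair (4.92 to 1.81, FDR = 1.22e-05). PDGFA rose in the A2780 pair, with a ratio of pooled reads of 25.4 (95% exact interval 11.5 to 69.9), and was without a read in PEO4, against 31 to 72 reads in PEO1. SH2B3, an adaptor that restrains cytokine signalling, fell in the PEA pair (8.59 to 5.14 log2 CPM, FDR = 3.61e-12). ETV1, a transcription factor that KIT signalling stabilises in other tumours, rose in all 3 pairs, by 2.63 on the log2 scale in CP70 (FDR = 1.28e-08), 1.03 in PEA2 (FDR = 0.000734) and 2.12 in PEO4 (FDR = 4.24e-07).

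Of the other SOX genes, 2, 2 and 1 were called in the A2780, PEA and PEO pairs, and of the other KLF genes 2, 0 and 1. Of all genes, 9.06%, 14.1% and 6.22% were called in these pairs. Of 16 listed SOX genes 6 were analysed, and SOX8 (0.70 to 4.67 log2 CPM, FDR = 3.28e-07) and SOX18 (2.12 to 4.28, FDR = 0.0159) rose in the A2780 pair. SOX17, a Müllerian factor, rose in the PEA pair (1.30 to 5.52, FDR = 1.37e-06) with SOX13 (2.92 to 6.70, FDR = 1.57e-10), and SOX7 fell in the PEO pair (5.44 to 2.71, FDR = 0.000549). Of 17 listed KLF genes 11 were analysed. KLF6 rose in the A2780 pair (4.85 to 7.33, FDR = 1.98e-14), and KLF7 fell in the A2780 pair (3.36 to 0.62, FDR = 1.24e-07) and the PEO pair (6.70 to 4.005, FDR = 2.25e-07).

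Of 20 listed pluripotency factors 7 were analysed, and 1 was called higher and 1 lower in CP70, 1 higher in PEA2 and 1 lower in PEO4, while POU5F1 and NANOG were not analysed here. SALL4 had 8.22 ± 0.08 log2 CPM in A2780 and 7.57 ± 0.06 in CP70 (log2FC -0.65, FDR = 0.284), against at most 24 reads in any HGSOC library. The A2780 and CP70 libraries did not overlap, and the shared spread included PEA1, with an SD of 1.46 at 0 to 3 reads. MYC had 6.97 to 7.91 log2 CPM on average in the 6 lines and did not pass the FDR in any pair (0.155 to 0.428). ZFP42, a marker of embryonic stem cells, had 4.86 ± 0.12 log2 CPM in A2780 and no read in CP70, at least 43.7-fold lower. TFCP2L1 rose in the A2780 pair, with a ratio of pooled reads of 14.6 (95% exact interval 5.49 to 54.7), and in the PEA pair (1.18 to 4.11 log2 CPM, FDR = 3.83e-06). TBX3 fell in the PEO pair (3.68 to -0.64, FDR = 3.22e-05). Among 25 other stem-cell markers, 19 were analysed, with 5 higher and 2 lower in CP70, 4 higher and 3 lower in PEA2, and 2 higher and 1 lower in PEO4. ALDH1A1, an aldehyde dehydrogenase used as a marker of stem-like ovarian cells, had 2 to 3 reads in each A2780 library and 4068 to 6423 in each CP70 library, a ratio of pooled reads of 1476 (95% exact interval 716 to 3671), and at most 1 read in any HGSOC library, PROM1-high lines included. PROCR fell in the A2780 and PEA pairs, with ratios of pooled reads of 17.5 (6.41 to 66.8) and 43.4 (11.4 to 368). The nerve growth factor receptor NGFR rose in both HGSOC pairs, from at most 1 read to 420 to 691 in PEA2 and from at most 2 reads to 5 to 11 in PEO4. The intermediate filament gene NES fell in the A2780 pair (9.68 to 6.44 log2 CPM, FDR = 7.89e-11) and in the PEA pair (5.35 to 4.38, FDR = 0.000408), and rose in the PEO pair (0.65 to 3.86, FDR = 3.18e-10).

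**Figure D4:**
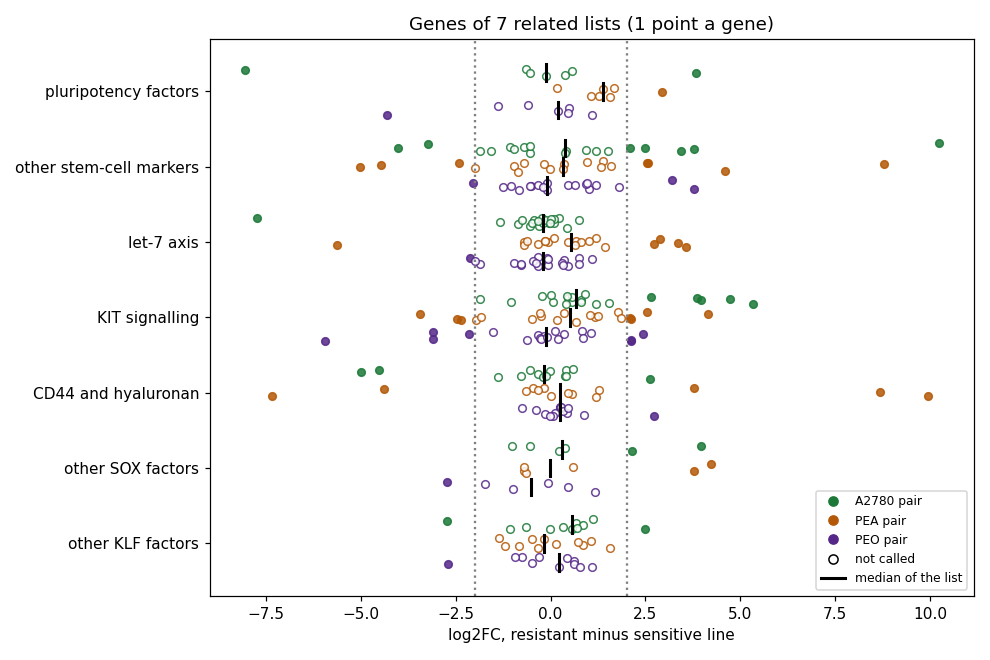
log2FC (x axis, resistant minus sensitive line) of each analysed gene of 7 related lists (y axis) in the 3 pairs. Filled points were called, open points were not, black bars are list medians and dotted lines mark a log2FC of -2 and 2. Most points lie between the dotted lines, and the called points lie on both sides.

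The genes analysed were 7 pluripotency, 19 other stem-cell, 20 let-7, 20 KIT, 14 CD44, 6 SOX and 11 KLF genes. KLF5 was both in the pluripotency and the KLF list. Across the 7 lists, 22 genes were called for CP70, 27 for PEA2 and 15 for PEO4. Of all genes, 9.06%, 14.1% and 6.22% were called in the A2780, PEA and PEO pairs. The lists were chosen with earlier results of these data known, and their counts were not tested against these shares. List medians lay within 1 of 0 on the log2 scale, except that of the pluripotency factors in the PEA pair (1.38, of 7 genes).

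Among the 5 genes whose levels were most like PROM1 over the 18 libraries, by Pearson r on the log2 scale of 11994 genes, were ATP6AP1 (r = 0.979), CREG2 (0.967), KRT86 (0.959) and GPR116 (0.953). The most opposite were SHC1 (-0.963), PLOD1 (-0.956) and STOM (-0.946). The libraries of a line share their level, so the pattern rests on 6 lines, of which PEO1 and PEA2 are high. By the 6 line means the first 2 genes were again ATP6AP1 and CREG2, while KRT86 ranked 5 and GPR116 ranked 11. By Spearman rank correlation over the 18 libraries, ATP6AP1 ranked 27, CREG2 80, KRT86 12 and GPR116 307. STOM, PLOD1 and SHC1 ranked 11992, 11986 and 11912 of 11994 by that measure. The order of the genes thus depended on the measure. ATP6AP1, a subunit of the vacuolar proton pump, spanned only 5.92 to 7.42 log2 CPM on average, while KRT86, a hair keratin, spanned -3.20 to 5.25.

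**Figure D5:**
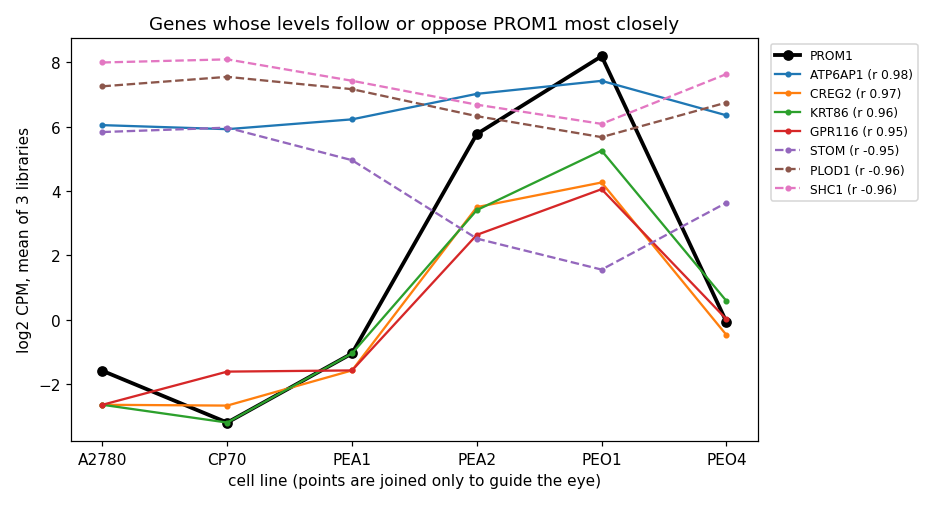
Mean log2 CPM of 3 libraries (y axis) in each cell line (x axis) for PROM1 and 4 of the 5 genes most like it (solid lines) and 3 most opposite to it (dashed lines), with Pearson r over 18 libraries in the legend. The solid lines peak in PEO1, and the dashed lines are lowest in PEO1.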

How the data were processed

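Total RNA was sequenced from 18 libraries, 3 per line. Per the labels, the authors depleted ribosomal RNA, prepared directional libraries, aligned reads with Bowtie2 to hg19, counted them with featureCounts and normalised them with limma. Versions of these tools and the filter that left 12853 genes are not given in the sources used here. The deposited values are log2 counts relative to library size (log2 CPM), with 0.5 reads added to each count. All columns of sample values entered the fit. Whole reads came back from 100% of values (within 0.01 reads), and gave depth, floors, ratios and voom weights. Rows were matched by symbol. The members and gene lists were chosen with earlier results of these data known.

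The deposited log2 values were fitted with limma 3.58.1 in R 4.3.3 (moderated statistics, variance trend, 1 mean per line, all 18 libraries in 1 fit) and adjusted by the Benjamini-Hochberg method over 12853 genes. SD and n = 3 refer to libraries of a line. Genes named were the members, a set of partners by role, and, per list and pair, the 2 called genes with the largest |log2FC| whose lines did not overlap, with the 5 and 3 genes of highest and lowest correlation with PROM1 among those with a mean log2 value above 0, of which 1 is not reported here. EPCAM, PAX8, EMX2, DCN, SALL4 and SPP1 in the PEA pair were added after their values were seen. A fold against a line without a read used 3 reads per library, and one against a line with 1 to 3 reads a library used pooled reads with an exact binomial interval (scipy 1.17.1). Gene positions and lengths came from a GRCh37 annotation, which matched 12642 identifiers and not 211. The canonical transcript was used for 3′ UTRs after the longest annotated one of HMGA2 proved to be another isoform. On data simulated for the A2780 pair with 12853 genes, 200 of 200 genes changed by a log2FC of 3 were called, with 13 unchanged genes. The changed genes were drawn from those with a mean log2 value above 3 in that pair, and 1 fixed extra spread was used for all genes. The simulation thus does not show how often changed genes with few reads are called. Counts of replicates differed beyond counting noise (chi-square per degree of freedom 1.74 to 13.5). The alternatives were quantile normalization, each pair by itself, no variance trend, dropping genes averaging 0 or less on the log2 scale, the replicate block, |log2FC| above 1, 2 reads added to each count, voom weights, the longest transcript for lengths, and leaving out each library in turn. ATAC-seq and other assays of the study were not analysed here.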

Additional observations from a re-analysis of the deposited data

Results flagged for a closer look

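The difference between 2 pairs in their log2FC was tested for the 6 markers other than PROM1, in the same limma fit and adjusted over all genes, and 7 of these differences were above 2 with an FDR below 0.05. CD44 differed by 3.05 between the PEA and PEO pairs (FDR = 2.46e-06) and by 3.77 between the A2780 and PEO pairs (FDR = 2.19e-07), the latter from at most 3 CD44 reads in each A2780 and CP70 library. KLF4 differed by 3.48 between the PEA and PEO pairs (FDR = 1.52e-05) and by 3.90 between the A2780 and PEO pairs (FDR = 5.70e-06), where A2780 held no KLF4 read. LIN28B differed by 3.001 between the PEA and PEO pairs (FDR = 0.000766), by -6.71 between the A2780 and PEA pairs (FDR = 6.07e-08) and by -3.71 between the A2780 and PEO pairs (FDR = 0.000133). With 2 reads added to each count the PEA and PEO pairs differed by 1.46 in LIN28B. The contrasts share libraries where they share a pair. KITLG differed by 0.04 between the A2780 and PEA pairs (95% confidence interval -1.10 to 1.19).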

How the results depend on the processing

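The 7 markers gave 2, 3 and 2 calls in the A2780, PEA and PEO pairs. The counts of marker calls in the PEA and PEO pairs include PROM1, which chose the set. In the A2780 pair the count was 7 at |log2FC| above 1, 1 with 2 reads added to each count, and 1 to 3 with each library left out, with the 1 obtained without CP70 replicate 2. In the PEO pair it was 4 with quantile normalization, which added KITLG and KLF4, 5 at |log2FC| above 1, and 2 to 3 with each library left out. Quantile normalization moved the median of all genes in the PEA pair from 0.01 to -0.10. The genes of the 7 other lists called were 50 for PEA2 and 25 for PEO4 at |log2FC| above 1, in place of 27 and 15. The number of markers that differed between the PEA and PEO pairs was 3 under all alternatives but |log2FC| above 1 (4) and 2 reads added (2). With the replicate number as a replicate block, the markers called numbered 2, 3 and 2 and the list genes 22, 27 and 15. The deviations of same-numbered libraries from their line means correlated within a pair at r from -0.148 to 0.165, above 0.1 in 3 of 9 cases, so the numbers were not taken to pair samples. Of 247 alternative fits of the 19 marker values with a test, 235 kept their side of the FDR threshold, 10 lost it (SOX9 and CD44 in the A2780 pair, SOX4 in the PEO pair), 2 gained it (SOX9 in the PEO pair) and 0 turned direction. Depth limits PROM1, CD44 and KLF4 in the A2780 pair and LIN28B in the PEO pair, where lines held few reads.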
